A study of Mus musculus with 2 samples.

Results

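Keratinocytes of the nail and hair matrix were described in single-cell RNA sequencing data from amputated mouse digits. A cell was counted as one of them when it held at least 1 UMI (unique molecular identifier, 1 captured transcript) of 3 or more of the 6 marker genes *Krt35*, *Krt25*, *Krt73*, *Prr9*, *S100a3* and *Mt4* and no UMI of the fibroblast gene *Pdgfra*. This rule chose 252 of 9967 cells, of which 188 came from the 6715 cells of the FGF8 library and 64 from the 3252 cells of the BSA library. The 9967 cells were those of 10952 barcodes whose detected genes numbered 201 to 7499 and whose mitochondrial UMIs stayed under 15%.

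The study asked how FGF8 acts on an amputation wound of the middle phalanx (P2), which does not regenerate by itself. ICR mice, males and females together, had hindlimb digits 2 and 4 amputated through P2 on postnatal day 3, which removed the terminal phalanx and the nail organ. On postnatal day 7 a bead soaked in FGF8 (500 ng/µl) or, as the control, in 0.1% BSA was placed in the wound, and the cells were collected 24 h later, on postnatal day 8. Each library pooled 20 digits of 5 mice, the surrounding epithelium was taken off before the tissue beyond the P2 stump was dissociated for 4 h, and 1 library was made per bead. With 1 library per condition there was no replicate, no test between conditions was possible, and all intervals given are 95% intervals that cover counting error only, not the spread between animals.

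The matrix is the growing zone at the base of a hair or nail, where dividing keratinocytes commit to a lineage and fill with keratin. Hair cortex, hair cuticle and nail plate cells build hard keratins such as Krt31, Krt32, Krt35 and Krt82 and the keratin-associated proteins that cross-link them, whereas the inner root sheath, a sleeve found around the growing hair only, is built from Krt25, Krt27, Krt28, Krt71, Krt72 and Krt73 and from trichohyalin (*Tchh*). Among the regulators, Lef1 is a nuclear mediator of Wnt signals in the matrix, Hoxc13 is needed for hair and nail keratin expression, Msx2 for shaft differentiation, and Gata3 for the inner root sheath.

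The marker genes lie in clusters of related genes. On the GRCm39 mouse genome, *Krt35* spans chr11:99983019-99987067 and *Krt25* chr11:99206342-99213777, both on the minus strand of the type I keratin cluster, beside *Krt31* (chr11:99937472-99941377), *Krt32* (chr11:99971674-99979100), *Krt27* (chr11:99236391-99241930) and *Krt28* (chr11:99255698-99265735). *Krt73* spans chr15:101701743-101710802 in the type II keratin cluster, with *Krt71* (chr15:101642384-101651544) and *Krt82* (chr15:101449649-101459102). *Prr9*, which encodes a small proline-rich protein, lies at chr3:92029511-92031260, *S100a3*, which encodes a calcium-binding protein of the hair cuticle, at chr3:90491966-90510009, and *Mt4*, an epithelial metallothionein, at chr8:94863825-94865661. Keratins of 1 cluster are similar in sequence, so reads of the closest copies (*Krt31* and *Krt33a*, for example) may have been shared or lost in counting, and the same holds for the keratin-associated protein genes.

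The promoters of 2 inner root sheath keratins and 2 hard keratins are shown because the results turn on these kinds of keratin: *Krt25* and *Krt73* belong to the rule and were used to divide the cells, whereas *Krt31* and *Krt32* were used for neither. Each is the 250 bases before the gene's start in RefSeq on GRCm38.p6, read on the minus strand of Krt25 (chr11:99322952-99323201), Krt73 (chr15:101802361-101802610), Krt31 (chr11:100050552-100050801) and Krt32 (chr11:100088270-100088519), and capitals mark matches to 3 motifs searched on both strands: the LEF/TCF letters CTTTGA and CTTTGT, the GATA letters AGATAA and TGATAA, and TATAAA.
Krt25: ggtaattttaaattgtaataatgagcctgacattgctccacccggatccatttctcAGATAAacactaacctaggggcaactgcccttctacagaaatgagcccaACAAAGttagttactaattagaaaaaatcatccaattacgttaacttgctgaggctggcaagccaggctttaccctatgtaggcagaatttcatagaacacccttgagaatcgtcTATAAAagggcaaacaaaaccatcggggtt
Krt73: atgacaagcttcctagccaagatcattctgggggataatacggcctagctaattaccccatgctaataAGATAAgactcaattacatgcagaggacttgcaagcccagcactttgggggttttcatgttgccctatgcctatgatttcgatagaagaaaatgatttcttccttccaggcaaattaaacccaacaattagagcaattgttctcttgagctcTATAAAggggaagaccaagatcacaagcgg
Krt31: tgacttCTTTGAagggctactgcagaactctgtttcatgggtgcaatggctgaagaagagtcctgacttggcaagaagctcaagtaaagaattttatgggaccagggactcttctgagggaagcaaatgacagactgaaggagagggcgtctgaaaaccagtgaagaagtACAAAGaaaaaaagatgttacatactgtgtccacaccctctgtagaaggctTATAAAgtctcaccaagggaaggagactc
Krt32: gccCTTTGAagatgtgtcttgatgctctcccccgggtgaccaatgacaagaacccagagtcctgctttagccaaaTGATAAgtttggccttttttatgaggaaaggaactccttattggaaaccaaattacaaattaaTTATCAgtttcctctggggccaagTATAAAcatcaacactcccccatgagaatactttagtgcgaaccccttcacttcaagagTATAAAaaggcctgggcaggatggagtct

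All 4 sequences held TATAAA, in Krt25 and Krt73 at 30 to 25 bases before the start and in Krt31 and Krt32 at 29 to 24 bases, against 12.4% of 32851 mouse promoters of the same length. LEF/TCF letters stood in Krt25 (145 to 140 bases before the start), Krt31 (244 to 239 and 80 to 75) and Krt32 (247 to 242), and in 27.6% of all promoters. GATA letters stood in Krt25 (194 to 189), Krt73 (182 to 177) and Krt32 (175 to 170 and 112 to 107), and in 16.6% of all promoters. These matches describe the sequence and are not shown to be bound, and both kinds of keratin held both kinds of letters.

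The cells fell into 2 very different sets by how many marker UMIs they held. In the FGF8 library the summed UMIs of the 6 marker genes had a median of 26 per cell and a maximum of 7647, and 47 of the 188 cells held exactly 3, the fewest the rule allows. In the BSA library the median was 213.5 and the maximum 3366, and 2 of the 64 cells held exactly 3. A level of 20 summed marker UMIs, chosen after the data were seen, separated the cells into marker-rich ones (99 FGF8 and 55 BSA cells) and marker-poor ones (89 and 9), with 7 FGF8 cells and 1 BSA cell between 15 and 24. Just inside the rule, the cells with exactly 3 markers (125 and 39) had a median of 5 marker UMIs (FGF8) and 111 (BSA). Just outside it, the cells with exactly 2 markers (429 and 71) had a median of 2 in both.

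**Figure D1:**
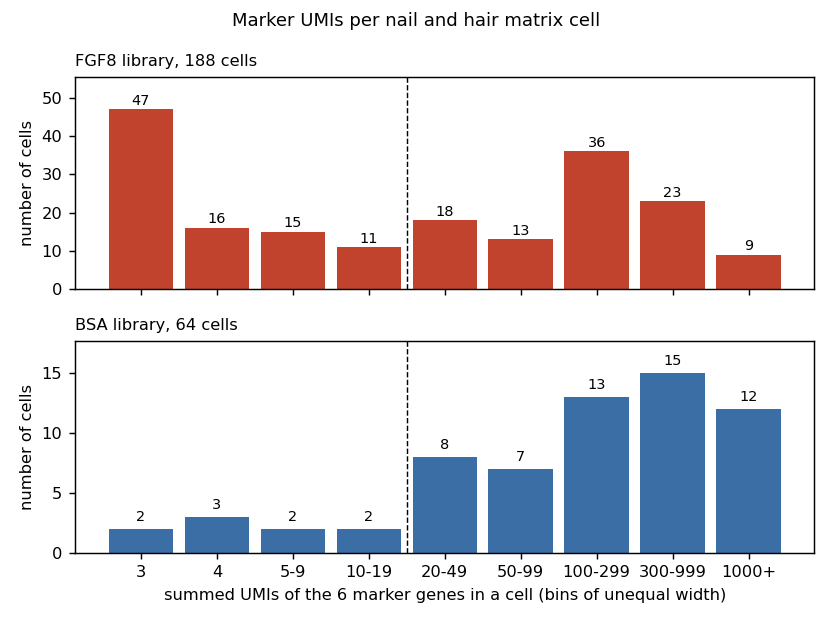
Number of cells (vertical axis, bars) by the summed UMIs of the 6 marker genes in a cell (horizontal axis, bins of unequal width), with the FGF8 library above and the BSA library below and a dashed line at 20 UMIs. The FGF8 cells had a peak at 3 UMIs (47 cells) and another from 100 to below 300 (36 cells), whereas 55 of 64 BSA cells lay at 20 or more.

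The markers also appeared in cells that should lack them. In macrophages of the FGF8 library (441 cells, median 11183 UMIs), 31.3% held a UMI of *S100a3*, 16.1% of *Mt4*, 12.2% of *Krt25*, 5.90% of *Prr9*, 4.08% of *Krt35* and 1.36% of *Krt73*. In macrophages of the BSA library (249 cells, median 13689 UMIs) the shares were 8.43% for *S100a3*, 7.63% for *Mt4*, 3.21% for *Krt25*, 1.61% for *Prr9*, 2.81% for *Krt35* and 2.41% for *Krt73*. Fibroblasts showed the same direction for *S100a3*, with 33.8% and 13.5%. When each macrophage was thinned to 2000 UMIs, the *S100a3* shares were 7.33% and 1.28%. Among the cells under the rule, the 10 with the most *S100a3* held 89.6% (FGF8) and 91.7% (BSA) of that group's *S100a3* UMIs. The source of the UMIs in macrophages was not tested. The share of cells with a UMI of a marker thus had a background of its own in each library, higher in the FGF8 library for 5 of the 6 markers.

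**Figure D2:**
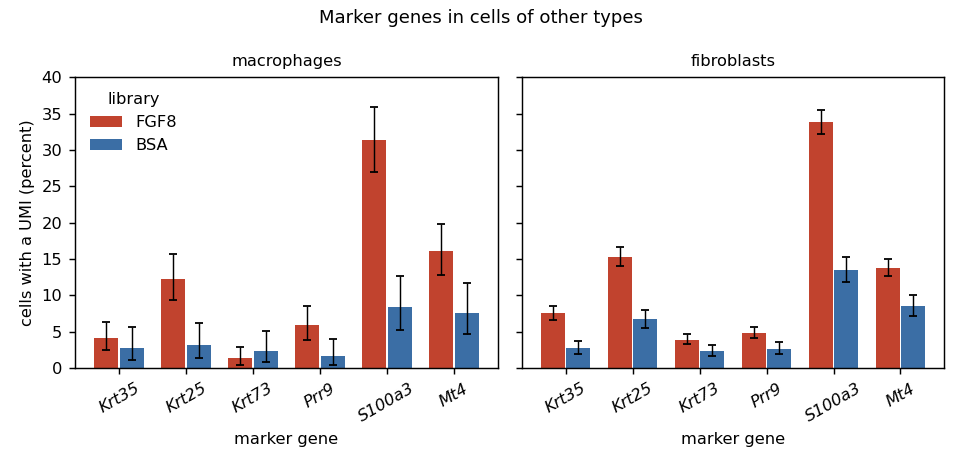
Percent of macrophages (left) and fibroblasts (right) with at least 1 UMI of each marker gene (vertical axis) in the FGF8 library (red) and the BSA library (blue); whiskers are exact 95% binomial intervals. *S100a3* reached 31.3% of FGF8 macrophages against 8.43% of BSA macrophages.

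The marker-poor cells were a mixture, of which part went against the label. They were set apart by few marker UMIs, so only genes outside the rule can describe them. Their hard keratins other than *Krt35* summed to 79.1 counts per 1000000 UMIs (CPM) for FGF8 and to 0 for BSA, against 5140 and 6233 CPM in the marker-rich cells. Their epithelial adhesion genes stood at 1247 and 843 CPM, above the 147 and 57.0 CPM of macrophages, and their inner root sheath genes at 84.0 and 275 CPM, above 22.6 and 15.9 CPM. Single cells among them held many UMIs of keratinocyte genes, such as a FGF8 cell with 661 UMIs of *Krt17* and 266 of *Lgals7*.

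Genes of other cell types were also found in them, most of their UMIs in a few cells. The 6 erythroid genes summed to 64163 CPM in the FGF8 marker-poor cells and to 222 CPM in the marker-rich cells, but the medians over cells were 516 and 223 CPM, and 3 cells held 60.9% of the *Hbb-bs* UMIs of the FGF8 marker-poor cells. In the BSA library these genes summed to 672 and 198 CPM. The 6 chondrocyte and osteoblast genes summed to 4778 against 571 CPM (FGF8) and 114 against 15.4 CPM (BSA), with a median over cells of 0 in each. The 8 fibroblast genes had a median of 3446 CPM in the FGF8 marker-poor cells, 649 CPM in the marker-rich cells and 806 CPM in macrophages, and of 3215 CPM in the BSA marker-poor against 412 CPM in the BSA marker-rich cells. Of the 8 macrophage genes, 3 or more were found in 14 of 89 marker-poor and 1 of 99 marker-rich FGF8 cells. The part of free RNA and of captured pairs of cells in the marker-poor cells was not tested.

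The share of matrix cells turned with the definition. All cells under the rule were 2.80% of kept cells (2.42 to 3.22) for FGF8 and 1.97% (1.52 to 2.51) for BSA. The marker-rich cells alone were 1.47% (1.20 to 1.79) for FGF8 and 1.69% (1.28 to 2.20) for BSA, and these intervals overlapped. The following results are given for the marker-rich cells, and the comparison of the libraries also with the marker-poor cells included.

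Epithelial genes outside the rule stood high in these cells. Over all 252 cells, the genes furthest above the other kept cells after the markers were *Rab25* (found in 58.7% of cells), *Nectin4* (50.8%), *Calml3* (50.4%), *S100a14* (65.1%) and *Grhl1* (52.4%), genes of epithelial transport, adhesion and differentiation. The stratified epithelium genes *Sfn* (69.4%), *Lgals7* (76.2%), *Perp* (60.3%) and *Dsp* (60.7%) were also among the 20 highest. In the marker-rich cells alone, *Rab25* was found in 88.3% and *Nectin4* and *Calml3* in 79.2%, and the list genes *Krt28* (64.3%), *Hoxc13* (50%) and *Sp6* (60.4%) came among the 20 highest there. These genes were chosen by their values and are a description.

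Among the marker-rich cells, *Krt35* and the pair *Krt25* and *Krt73* were nearly exclusive. *Krt35* had more UMIs than *Krt25* and *Krt73* together in 35 of 99 FGF8 cells (35.4%, 26.0 to 45.6) and 20 of 55 BSA cells (36.4%, 23.8 to 50.4), called Krt35-led here. *Krt25* and *Krt73* together had more in 62 FGF8 cells (62.6%, 52.3 to 72.1) and 35 BSA cells (63.6%, 49.6 to 76.2), and 2 FGF8 cells were tied. The libraries did not differ in this split beyond counting error. A Krt35-led FGF8 cell held a median of 158 *Krt35* UMIs and a median of 0 *Krt25* and 0 *Krt73* UMIs. *Krt35*, *Krt25* and *Krt73* made the groups, so this separation is no finding, whereas the other genes that follow did not make them. Of these others, *S100a3*, *Mt4* and *Prr9* belong to the rule and helped choose the cells.

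**Figure D3:**
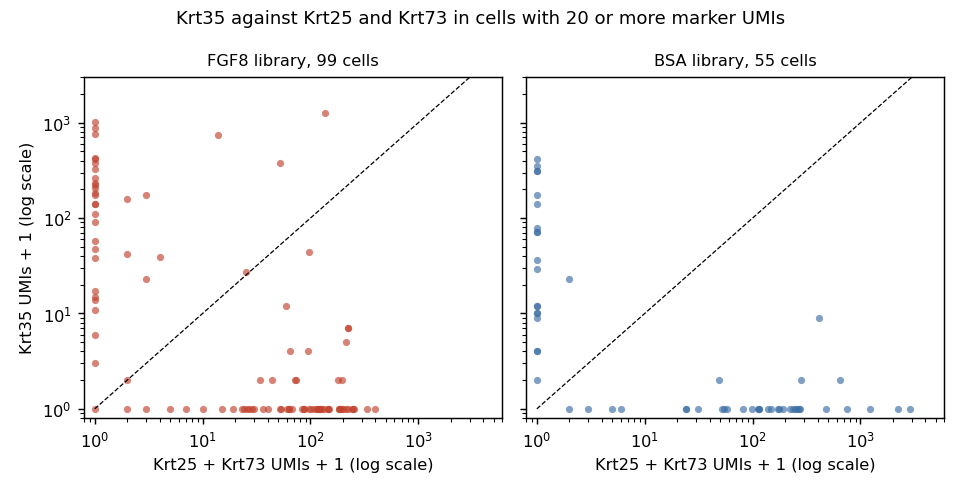
*Krt35* UMIs plus 1 (vertical axis, log scale) against summed *Krt25* and *Krt73* UMIs plus 1 (horizontal axis, log scale), 1 point per marker-rich cell, with the 99 FGF8 cells on the left, the 55 BSA cells on the right and a dashed line of equality. Most cells lay along 1 of the axes, 35 and 20 above the line and 62 and 35 below it.

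Hard keratins lay in the Krt35-led cells, though unevenly among them. Their 13 hair and nail keratins other than *Krt35* summed to 9816 CPM (FGF8) and 15583 CPM (BSA), and 21 of 35 and 14 of 20 cells held 2 or more UMIs of them. A single BSA cell held 5241 of the 6064 UMIs, and 2 FGF8 cells held 3346 and 2362 of 9239. Without the highest cell of each library the sums were 6794 and 2571 CPM, so the order of the sums turned with that cell. The medians over cells were 744 and 1659 CPM, with the BSA library higher. The same genes summed to 35.4 and 23.9 CPM in the Krt25/Krt73-led cells, 7.96 and 10.7 CPM in epidermal keratinocytes and 13.0 and 6.67 CPM in macrophages. The keratin-associated protein genes summed to 1752 and 3369 CPM in the Krt35-led cells and to 56.2 and 10.2 CPM in the Krt25/Krt73-led cells, but 1 BSA cell held 1143 of the 1311 UMIs and the sums without the highest cell were 1428 and 525 CPM. The Krt25/Krt73-led cells carried the inner root sheath genes instead: the 10 other than *Krt25* and *Krt73* summed to 8025 CPM (FGF8) and 26529 CPM (BSA) there, to 390 and 280 CPM in the Krt35-led cells and to 22.6 and 15.9 CPM in macrophages. The medians over Krt25/Krt73-led cells were 6934 and 10526 CPM, and 60 of 62 and 32 of 35 of them held 2 or more UMIs. Epidermal keratinocytes held 1082 and 241 CPM of these genes. Nothing measured here separates hair shaft cells from nail cells among the Krt35-led cells, since their keratins are shared.

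Single inner root sheath genes showed the same split in both libraries. *Krt28* had 2751 UMIs in 59 of 62 Krt25/Krt73-led FGF8 cells and 118 UMIs in 9 of 35 Krt35-led FGF8 cells. In the BSA library *Krt28* had 3854 UMIs in 30 of 35 Krt25/Krt73-led cells and none in the 20 Krt35-led cells. *Krt27* had 643 UMIs in 50 cells against 18 in 5 (FGF8) and 2782 in 30 against 3 in 3 (BSA). *Krt28* was found in 2.27% of FGF8 and 3.21% of BSA macrophages and in 21.4% and 17.1% of epidermal keratinocytes. Its shares in the Krt25/Krt73-led cells were above all of these. *Crym*, which encodes a thyroid hormone-binding crystallin, had 611 UMIs in 25 Krt25/Krt73-led FGF8 cells and 1497 in 19 BSA cells, against 3 and 1 UMIs in the Krt35-led cells.

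On the other side, *Selenbp1*, a selenium-binding protein of the hair cortex, had 1802 UMIs in 21 of 35 Krt35-led FGF8 cells and 804 in 9 of 20 BSA cells, against 12 and 1 UMIs in the Krt25/Krt73-led cells. *Hephl1*, a copper oxidase whose loss gives abnormal hair, had 213 and 67 UMIs in the Krt35-led cells and none in the Krt25/Krt73-led cells, at least 61.8-fold and 33.6-fold higher when the empty groups were set at 3 UMIs each. *Lrrc15* had 188 UMIs against 2 (FGF8) and 54 against 2 (BSA). Across 4007 genes, the log2 ratio of Krt35-led over Krt25/Krt73-led cells had the same sign in both libraries for 75.6%, and the 2 libraries' ratios had a Pearson r of 0.79 across genes, which are not independent replicates.

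**Figure D4:**
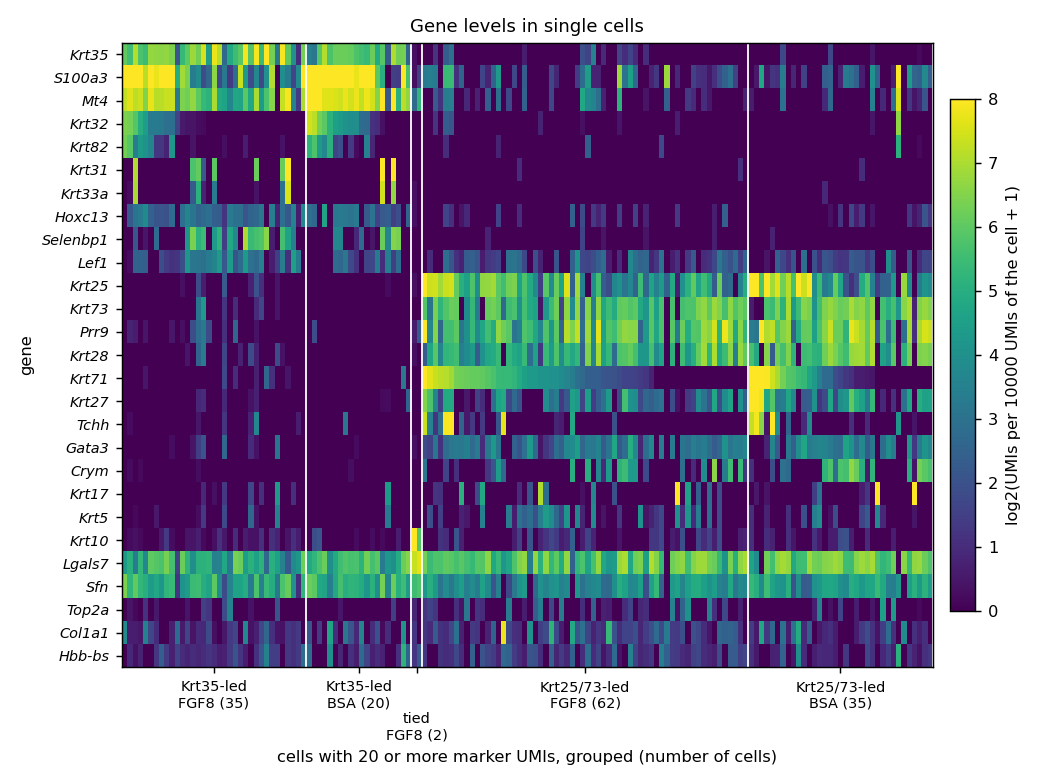
Level of 27 genes (rows) in each marker-rich cell (columns, grouped by leading keratin and library), as log2 of UMIs per 10000 UMIs of the cell plus 1, with colours capped at 8. *Krt35* to *Lef1* were high on the left, *Krt25* to *Crym* on the right, and *Krt32* with *Krt82* marked other Krt35-led cells than *Krt31* with *Krt33a*.

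The Krt35-led cells were themselves of several kinds. With a gene counted as present at 2 or more UMIs, *Krt32* or *Krt82*, keratins of the hair cuticle, were present without *Krt31* and *Krt33a* in 11 of 35 FGF8 cells and 12 of 20 BSA cells. *Krt31* or *Krt33a*, cortex keratins, were present without *Krt32* and *Krt82* in 7 FGF8 cells and 1 BSA cell, both pairs in 1 cell of each library, and neither in 16 and 6. *S100a3* reached 50868 CPM in the 11 FGF8 and 40558 CPM in the 12 BSA cells with *Krt32* or *Krt82* only, against 2165 CPM in the 7 FGF8 cells with *Krt31* or *Krt33a* only. *S100a3* is a gene of the rule and counts toward the marker-rich level, so its UMIs also helped choose these cells. *Selenbp1* ran the other way, with 43.9 and 215 CPM in the *Krt32* or *Krt82* cells and 4186 CPM in the 7 *Krt31* or *Krt33a* cells. In the cells with neither pair, *Lef1* stood at 922 CPM (FGF8) and 863 CPM (BSA), against 226 and 238 CPM in the *Krt32* or *Krt82* cells. It also stood at 724 CPM in the 7 FGF8 *Krt31* or *Krt33a* cells. Of the cells with neither pair, 13 of 16 (FGF8) and 3 of 6 (BSA) held 2 or more *Lef1* UMIs, and 1 BSA cell held 59. These subsets were drawn from few cells and from the values themselves, so they are a description.

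The Krt25/Krt73-led cells ran from *Krt71*-high to *Krt71*-negative. *Krt71* had 2 or more UMIs in 41 of 62 FGF8 and 19 of 35 BSA cells. *Tchh*, whose product hardens the inner root sheath, was almost limited to them, at 1199 and 6427 CPM against 4.27 and 14.2 CPM in the cells with fewer *Krt71* UMIs. Only 10 of the 41 and 8 of the 19 held 2 or more *Tchh* UMIs, and the 3 highest held 253, 232 and 124 (FGF8) and 1123, 497 and 279 (BSA). The cells with fewer *Krt71* UMIs held more summed *Crym*, with 1374 against 494 CPM (FGF8) and 3501 against 1684 CPM (BSA). The shares of cells with 2 or more *Crym* UMIs were close, 8 of 21 against 14 of 41 (FGF8) and 8 of 16 against 9 of 19 (BSA). A single *Krt71*-negative cell held 167 of the 611 UMIs of Krt25/Krt73-led FGF8 cells, and another 520 of the 1497 of BSA cells. *Krt28* was somewhat higher in the cells with fewer *Krt71* UMIs in the FGF8 library (5043 against 2684 CPM) but not in the BSA library (6739 against 6427 CPM).

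The matrix transcription factors were shared unevenly. The 26 factors together stood at 4111 and 3346 CPM in the Krt35-led cells, 4337 and 4537 CPM in the Krt25/Krt73-led cells and 2426 and 1882 CPM in epidermal keratinocytes. *Hoxc13* was at 567 and 573 CPM in the Krt35-led cells, found in 32 of 35 and 16 of 20, and at 61.1 and 41.0 CPM in the Krt25/Krt73-led cells. *Gata3* was at 662 and 749 CPM in the Krt25/Krt73-led cells, found in 57 of 62 and 28 of 35, and at 89.2 and 2.57 CPM in the Krt35-led cells. *Cux1*, another inner root sheath regulator, was at 1064 and 974 CPM against 224 and 66.8 CPM. *Lef1* leaned to the Krt35-led cells (594 and 360 CPM against 258 and 200 CPM), as did *Foxn1*, the nude gene (96.7 and 72.0 CPM against 47.6 and 35.8 CPM). In the BSA library the median was 2.5 *Lef1* UMIs in the Krt35-led cells, with 59 in 1 cell, and 2 in the Krt25/Krt73-led cells. *Msx2* was at similar levels in both kinds, 217 and 252 CPM against 208 and 261 CPM. *Sp6* changed sides between the libraries, with 159 against 107 CPM in FGF8 cells and 190 against 278 CPM in BSA cells.

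Epidermal genes were found in the matrix cells too. They are set beside epidermal keratinocytes, which were chosen for 4 or more of 9 epidermal markers and so had to be high in them. The 10 basal genes, *Krt5*, *Krt14* and *Itga6* among them, summed to 302 and 380 CPM in the Krt35-led cells and 476 and 293 CPM in the Krt25/Krt73-led cells, against 4023 and 3823 CPM in epidermal keratinocytes. The suprabasal genes summed to 686 and 285 CPM and to 2843 and 4273 CPM, against 15119 and 44518 CPM. In the Krt25/Krt73-led cells the desmosomal genes *Dsg1a* (473 and 727 CPM) and *Dsc1* (267 and 555 CPM) belonged to this list. *Krt1* and *Krt10*, also on it, reached no more than 3 and 5 UMIs in a cell of either kind. *Krt10* had a UMI in 29.9% of FGF8 and 18.9% of BSA macrophages. 1 of the 2 tied FGF8 cells held 2212 of the 2322 *Krt10* UMIs of all marker-rich FGF8 cells.

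For the comparison of FGF8 with BSA, each library's UMIs were added up over the cells in question and their CPM compared as a log2 ratio. A gene was counted as past the fold when the ratio was at least 1 or at most -1 and its counting interval left out 0, over genes with at least 30 UMIs. Over all 252 cells 14.6% of 9907 genes were past it with FGF8 higher and 3.27% with FGF8 lower. Over the marker-rich cells the shares were 6.08% and 2.54% of 8060 genes, over the Krt35-led cells 7.76% and 1.45% of 5165 genes, and over the Krt25/Krt73-led cells 6.96% and 3.40% of 6119 genes. The median ratio of all genes was 0.11 in all cells and 0.09 in the marker-rich cells. Of the genes past the fold over all cells, 384 higher and 158 lower ones were also past it in the marker-rich cells.

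Sex went along with the bead. Among cells that could be called from sex-linked transcripts, females were 18.8% of the FGF8 cells (26 of 138) and 86.0% of the BSA cells (37 of 43), against 24.6% and 79.3% of all kept cells. In the Krt35-led cells 3 FGF8 cells were called female and 26 male, whereas all 10 called BSA cells were female. Bead, sex ratio and library cannot be told apart in these data.

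The inner root sheath genes were the list furthest from the median of all genes. Of the 8 measured, 7 were past the fold with FGF8 lower and none with FGF8 higher over all cells, with a median log2 ratio of -2.81, and 7 of 8 over the marker-rich cells, with a median of -2.33. Over the Krt25/Krt73-led cells 6 of 8 were past the fold, with a median of -1.98. *Krt27* had a log2 ratio of -2.60 (-2.72 to -2.47) there, *Krt71* -1.99 (-2.06 to -1.92), *Tchh* -1.97 (-2.09 to -1.84) and *Krt28* -0.97 (-1.04 to -0.90). *Crym*, which is not on this list, was at -1.78 (-1.91 to -1.64).

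A few BSA cells carried much of this difference. The 3 BSA cells with the most *Krt71* held 2572, 2363 and 698 of its 6665 UMIs, while the 3 highest FGF8 cells held 257, 236 and 222 of 2346. The median over cells ran the other way, with 504 CPM of *Krt71* in a FGF8 cell and 206 CPM in a BSA cell. *Krt25*, a gene of the rule, was alike: summed it stood at 4307 CPM (FGF8) and 14146 CPM (BSA), but the 3 highest BSA cells held 2904, 2240 and 1085 of 8290 UMIs and the medians over cells were 2640 and 2542 CPM. For *Krt27* and *Krt28* the typical cell differed as the sum did. The median *Krt27* level was 429 CPM in FGF8 cells and 1443 CPM in BSA cells, and that of *Krt28* was 2901 and 4959 CPM. As a description of rule genes, the medians were 5029 and 6938 CPM for *Krt73* and 5092 and 6832 CPM for *Prr9*. *Tchh* was found in 16 of 62 FGF8 and 13 of 35 BSA cells, so its median was 0 in both, and its 3 highest BSA cells held 1123, 497 and 279 UMIs. In cells outside the rule the summed ratios were 2.06 for *Krt71* and 1.48 for *Krt27*, with the FGF8 library higher. *Krt71* had 9576 (FGF8) and 1223 (BSA) UMIs there. Of the *Krt25* UMIs of fibroblasts, 10 cells held 93.4% of 8498 (FGF8) and 89.4% of 1018 (BSA). A *Pdgfra* UMI left out 15 FGF8 and 6 BSA cells with 3 or more markers and 20 or more marker UMIs. The part of such cells in the ratios outside the rule was not tested. Over all cells the list's median was -3.21 within female-called cells (26 FGF8 and 37 BSA) and -1.85 within male-called cells (112 and 6). Without the cells that held 3 or more macrophage or 3 or more fibroblast markers, which left 18 FGF8 and 20 BSA cells, it was -2.43, with *Krt71* alone at 0.071. This setting left out most marker-rich cells of both libraries. Of the 8 fibroblast genes summed above, 3 or more were found in 88 of 99 FGF8 and 41 of 55 BSA marker-rich cells. In macrophages they were found in 406 of 441 and 189 of 249 cells.

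**Figure D5:**
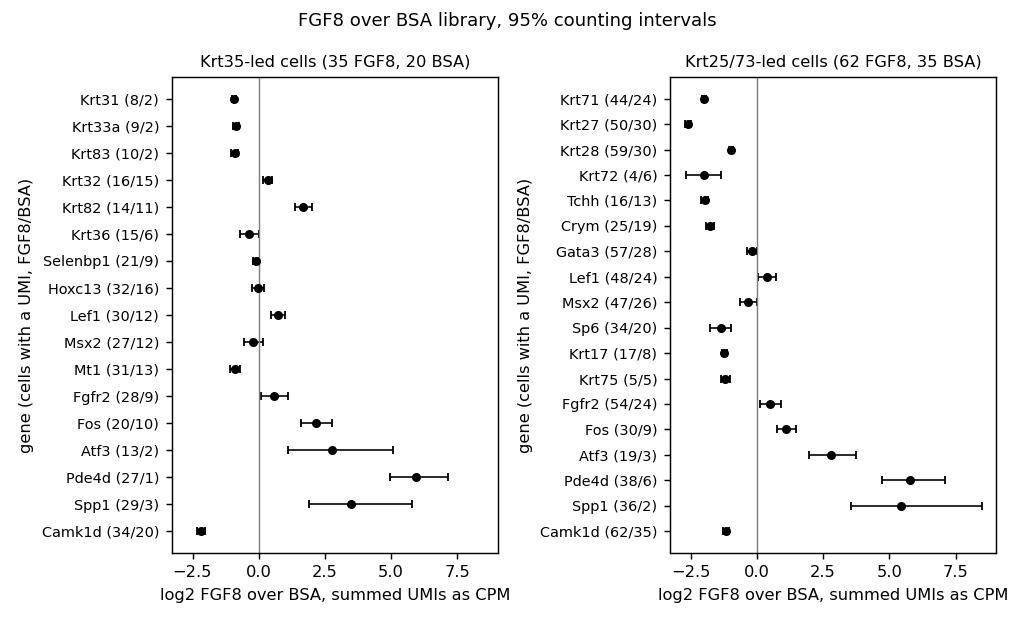
Log2 ratio of FGF8 over BSA (horizontal axis, points with 95% counting intervals) for named genes (vertical axis, with the number of cells that held a UMI in the FGF8 and BSA library) in the Krt35-led cells (left) and the Krt25/Krt73-led cells (right). *Krt71* and *Krt27* lay at -1.99 and -2.60 on the right, *Hoxc13* at -0.01 on the left, and *Pde4d* at 5.94 and 5.79 on both sides.

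The hard keratins had no common direction past the fold, and single cells carried several of their ratios. Of the 9 measured over the Krt35-led cells, 1 was past the fold with FGF8 higher and 2 with FGF8 lower, around a median of -0.87. In all, 7 of the 9 ratios lay below 0, and the median over cells of the summed hard keratins was 744 CPM (FGF8) and 1659 CPM (BSA). *Krt31* was at -0.92 (-1.0 to -0.84), yet 2093 of its 2256 BSA UMIs came from a single cell and it was found in 8 FGF8 and 2 BSA cells. *Krt33a* was at -0.87 (-0.98 to -0.76), with 1202 of 1258 BSA UMIs in a single cell. *Krt32*, found in 16 and 15 cells, was at 0.34 (0.18 to 0.51), and *Krt82*, found in 14 and 11 cells, at 1.68 (1.36 to 2.01), with 344 of 706 FGF8 UMIs in a single cell and a higher median over cells in the BSA library (0 and 49.3 CPM). *Krtap11-1* was at -1.30 (-1.46 to -1.14), with 607 of 668 BSA UMIs in a single cell. The rule gene *Mt4* had a median over cells of 8455 CPM (FGF8) and 19243 CPM (BSA) and *S100a3* of 1958 and 37428 CPM, beside 11 of 35 FGF8 and 12 of 20 BSA cells in the *Krt32* or *Krt82* subset, where *S100a3* was high. The part of this subset in the difference was not tested. Over all cells the median of the hard keratins was -5.82 among cells called female and 4.11 among cells called male, so its sign turned with the cells taken.

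Most matrix regulators were close between the libraries. Of the 20 measured over the Krt35-led cells, 3 were past the fold with FGF8 higher and none with FGF8 lower. *Hoxc13* was at -0.01 (-0.24 to 0.22), *Msx2* at -0.22 (-0.57 to 0.15) and *Lef1* at 0.72 (0.45 to 1.00), with a median *Lef1* level of 463 CPM in FGF8 and 152 CPM in BSA cells. The 3 past the fold were *Gata3* at 5.12 (2.60 to 10.44), *Cux1* at 1.75 (1.15 to 2.39) and *Klf4*, a barrier regulator, at 1.50 (0.78 to 2.30). *Gata3* had 84 UMIs in 8 FGF8 cells and 1 UMI in the BSA cells, and 3 FGF8 cells held 25, 23 and 21 of the 84. The cell with 23 also held 130 *Krt73* and 64 *Krt28* UMIs. For *Cux1*, found in 24 of 35 FGF8 and 8 of 20 BSA cells, 3 FGF8 cells held 78, 31 and 14 of 211 UMIs. In epidermal keratinocytes *Gata3* was at 0.56, *Cux1* at 1.87 and *Klf4* at -1.03. *Hoxc13*, *Msx2* and *Lef1* were at 1.01, 2.02 and 1.77 in these keratinocytes. Over the Krt25/Krt73-led cells 1 of 19 was higher and 3 were lower. *Gata3* was at -0.18 (-0.36 to 0.01), *Lef1* at 0.37 (0.04 to 0.71) and *Cux1* at 0.13 (-0.03 to 0.28), while *Sp6* was at -1.37 (-1.76 to -0.99) and *Sox9*, an outer root sheath and stem cell factor, at -2.58 (-4.01 to -1.37), with 7 UMIs against 30, but at 1.35 over all 252 cells.

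Genes of the FGF pathway were past the fold only with FGF8 higher. Of 13 measured in the Krt35-led cells 4 were, around a median of 0.58, and of 12 in the Krt25/Krt73-led cells 2 were, around a median of 0.45, against the 7.76% and 6.96% of all genes given above. Over all 252 cells 7 of 20 were, around a median of 0.67, against 14.6% of all genes. *Fgfr2*, whose epithelial splice form binds FGF7 and FGF10, was at 0.58 (0.07 to 1.11) in the Krt35-led and 0.51 (0.11 to 0.91) in the Krt25/Krt73-led cells, found in 28 of 35 and 54 of 62 FGF8 cells. The feedback inhibitors *Spry1* (-0.42, -1.34 to 0.56, and -0.02, -0.74 to 0.72) and, in the Krt25/Krt73-led cells, *Dusp6* (0.39, -0.69 to 1.54), and the target *Etv4* (0.20, -0.71 to 1.20, and -0.08, -0.63 to 0.48), had intervals that held 0 at 5 to 66 UMIs per library. *Ccnd1*, a cyclin of the G1 phase, was at 0.66 (0.30 to 1.04) and 0.65 (0.46 to 0.84), against 1.11 in all other kept cells.

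Those past the fold in both kinds were *Fgfbp1*, which encodes a carrier that frees FGFs from the matrix, and *Fos*, an immediate early gene. *Fgfbp1* was at 3.02 (1.41 to 5.34) and 1.31 (0.77 to 1.88), and *Fos* at 2.16 (1.59 to 2.79) and 1.11 (0.75 to 1.48). In the Krt35-led cells *Fgfbp1* had 59 UMIs in 11 of 35 FGF8 cells, 14, 10 and 9 of them in 3 cells, and 3 UMIs in 1 of 20 BSA cells. In the Krt25/Krt73-led cells it had 128 UMIs in 27 of 62 FGF8 cells and 37 in 9 of 35 BSA cells. A few cells carried the *Fos* values, since 3 Krt35-led FGF8 cells held 103, 90 and 37 of 292 UMIs and *Fos* was found in 20 of 35 FGF8 and 10 of 20 BSA cells. In the Krt25/Krt73-led cells *Fos* was found in 30 of 62 and 9 of 35 cells, with a median of 0 in both, and over all cells without 3 or more macrophage or fibroblast markers it was at -0.91. *Atf3*, a stress-induced factor of the wound list, was at 2.76 (1.12 to 5.08) in the Krt35-led cells, with 49 UMIs in 13 FGF8 cells and 3 in 2 BSA cells, and at 2.78 (1.96 to 3.73) in the Krt25/Krt73-led cells, with 125 UMIs in 19 and 13 in 3, and 3 cells held 71.4% and 60.8% of the FGF8 UMIs. In all other kept cells *Fos* was at -0.05, *Atf3* at -0.04 and *Fgfbp1* at 0.27, and in epidermal keratinocytes at -1.11, -0.33 and 0.22. Whether the matrix cells differ from the others could not be tested with 1 library per condition. Over all 252 cells the cells called female had *Fos* at 3.11 and those called male at -0.10, *Atf3* at 3.76 and 2.23, and *Fgfbp1* at -0.24 and 1.16.

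The keratinocyte wound and stress genes showed no common direction in the Krt25/Krt73-led cells, with 6 past the fold with FGF8 higher and 6 with FGF8 lower of 17. *Krt17*, a wound and companion layer keratin, was at -1.23 (-1.32 to -1.15), but 2 BSA cells held 2027 and 847 of 2899 UMIs. It was found in 17 of 62 FGF8 and 8 of 35 BSA cells. Over all kinds of matrix cells its ratio was 2.59 among those with 50 or more marker UMIs and 3.13 within male-called cells. It was 9.83 without cells that held 3 or more macrophage or 3 or more fibroblast markers. *Sprr1a*, a cornified envelope gene, was at -4.85 (-5.44 to -4.32), found in 13 FGF8 and 6 BSA cells, with 283 and 282 of 600 BSA UMIs in 2 cells. Over all cells without 3 or more macrophage or fibroblast markers its ratio was 2.02. *Areg*, an EGF receptor ligand, was at -1.06 (-1.48 to -0.63), with 47, 22 and 16 of 119 BSA UMIs in 3 cells, found in 26 of 62 FGF8 and 14 of 35 BSA cells and at 1.67 within male-called cells. Over all 252 cells 14 of 25 were higher and 7 lower, against 14.6% and 3.27% of all genes. Over the marker-poor cells 14 of 18 were higher and 1 lower, whereas of all 5905 genes measured there 552 were higher and 561 lower. The BSA side of that count was 9 cells, and 1 of them held 50473 of their 105598 UMIs. The metallothioneins *Mt1* and *Mt2* were higher in the FGF8 library in the Krt25/Krt73-led cells, at 2.34 (1.80 to 2.94) and 3.13 (2.31 to 4.07), and lower in the Krt35-led cells, at -0.90 (-1.08 to -0.72) and -0.75 (-0.99 to -0.51). They were also higher in all other kept cells, at 0.89 and 1.30, and in epidermal keratinocytes, at 1.04 and 0.89.

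Cell cycle genes leaned higher in the FGF8 library, in matrix cells and in other cells. Over the Krt25/Krt73-led cells 20 of 43 G2/M genes were past the fold with FGF8 higher and 1 with FGF8 lower, around a median of 0.97, and the G2/M genes summed to 6737 CPM (FGF8) and 4438 CPM (BSA). Over the Krt35-led cells 7 of 25 were higher and none lower, with sums of 2591 and 2056 CPM. In fibroblasts the sums were 5194 and 2425 CPM and in epidermal keratinocytes 6321 and 2850 CPM. Of the marker-rich cells 24 of 99 (FGF8) and 8 of 55 (BSA) held 2 or more UMIs of the proliferation gene *Mki67*, 18 of 62 and 7 of 35 among the Krt25/Krt73-led and 6 of 35 and 1 of 20 among the Krt35-led cells. In both libraries the G2/M sum was higher in the Krt25/Krt73-led cells than in the Krt35-led cells. Over all 252 cells the G2/M median was 1.00, against 0.89 in the female-called cells alone and 0.22 in the male-called cells alone.

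Some of the genes with the largest ratios differed in other cells too. Of the 10 highest and 10 lowest over the marker-rich cells, 3 and 1 were past the fold on the same side in other kept cells, and of those over all 252 cells 5 and 0. *Pde4d*, a cyclic AMP phosphodiesterase, was at 5.94 (4.95 to 7.15) in the Krt35-led and 5.79 (4.74 to 7.11) in the Krt25/Krt73-led cells, found in 27 of 35 and 38 of 62 FGF8 cells and in 1 of 20 and 6 of 35 BSA cells. It was at 1.29 in all other kept cells, 2.47 in macrophages and 3.0 in epidermal keratinocytes. *Spp1*, the secreted phosphoprotein osteopontin, was at 3.48 (1.88 to 5.79) and 5.42 (3.54 to 8.49), and *Timp1*, a protease inhibitor, at 4.09 (2.68 to 5.99) in the Krt25/Krt73-led cells, against 2.74 and 2.11 in other kept cells. *Spp1* was found in 29 of 35 Krt35-led and 36 of 62 Krt25/Krt73-led FGF8 cells. It had a UMI in 75.7% of FGF8 and 26.9% of BSA macrophages, at 1691 and 110 CPM. In epidermal keratinocytes it had a UMI in 58.0% and 7.14%, at 221 and 229 CPM. The source of the *Spp1* UMIs in the matrix cells was not tested. *Camk1d*, a calcium-dependent kinase, was lower in the FGF8 library at -2.18 (-2.33 to -2.04) and -1.15 (-1.26 to -1.04) and was found in nearly every cell. In other kept cells it was at -0.9998, just short of the fold.

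Several of the highest ratios over all 252 cells belonged to genes of other cell types, and some of these were much smaller in the marker-rich cells. The globin gene *Hbb-bs* was at 6.72 over all cells and 0.61 over the marker-rich cells, and was found in 84.1% of FGF8 and 75.5% of BSA macrophages. The cartilage collagen gene *Col2a1* was at 6.50 and at 5.30, with 467 and 370 of the 854 UMIs of the FGF8 Krt25/Krt73-led cells in 2 cells. The protease gene *Mmp3* had no UMI in a BSA matrix cell and was found in 18 of 62 Krt25/Krt73-led FGF8 cells with 19 UMIs, at 4.38 in other kept cells. On the lower side, *2310046K23Rik* was at -2.90 (-3.40 to -2.44) in the Krt25/Krt73-led cells, found in 21 FGF8 and 15 BSA cells and at 0.50 in other kept cells. Its median over cells was 0 in both libraries, 3 BSA cells held 69, 61 and 56 of 241 UMIs, and over all cells without 3 or more macrophage or fibroblast markers its ratio was 1.87. *Fam25c* was at -2.04 (-2.26 to -1.83) in the Krt25/Krt73-led cells, with medians over cells of 156 and 608 CPM. It was at -1.20 in other kept cells, past the fold, and at -2.31 in epidermal keratinocytes.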

How the data were processed

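Single-cell RNA sequencing with 10x 3′ chemistry was done on 2 libraries of pooled digits, 1 for the FGF8 bead and 1 for the BSA bead, which are the groups of the labels. The authors deposited raw UMI counts per gene and barcode, made with Cell Ranger 9.0.0 on the GRCm39 mouse reference, for barcodes called as cells; the submitters' processing notes also name Seurat. The filters of the methods (more than 200 and fewer than 7500 genes, under 15% mitochondrial UMIs) had not been applied and were applied here. Kept cells had a median of 12251 UMIs (FGF8, 103223720 in all) and 15377 UMIs (BSA, 54376379 in all). 6 barcodes occurred in both libraries, 1 of them that of a FGF8 matrix cell. No doublet caller was run and no doublets were removed.

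The software was numpy 2.4.6, pandas 2.3.3, matplotlib 3.10.9 and scipy 1.17.1 under Python 3.11.15. Per library and group of cells, UMIs were added up, scaled to CPM and compared as log2 ratios with exact conditional 95% intervals, and shares were given exact Clopper-Pearson intervals. A group without a UMI entered at 3 UMIs over the group, which gives a bound. With 1 library per condition no test was made and the deposited counts were not fitted with a count model; TMM factors came from edgeR 4.0.16 in R 4.3.3. The interval was tested on simulated data. Thinning used a seed of 42. Cells were called female or male from X- and Y-linked transcripts. Macrophages held 3 or more macrophage markers and fibroblasts *Pdgfra* with 3 or more collagen and related genes.

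The members, gene lists and tests were chosen with earlier results of these data known. Genes named are the 6 markers, genes of the lists with at least 30 UMIs, the 20 genes furthest above other cells among those found in 50% of members, and the 10 highest and 10 lowest ratios among genes with at least 100 UMIs, found in 20% of cells of the higher library and of the same sign in cells of either sex. *Dsg1a*, *Dsc1*, *Hephl1*, *Lrrc15*, *Mt1*, *Mt2* and the other named genes belong to these lists. Alternatives were the number of markers, the *Pdgfra* condition, cell filters, thinning, weight of cells, scaling, minimum counts, sex and other cell types' markers. Promoter sequences came from RefSeq tables, in which *Krt35* was not matched.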

Additional observations from a re-analysis of the deposited data

How the results depend on the processing

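The main values here are those over all 252 cells, as log2 ratios of FGF8 over BSA unless given in percent. The median of the inner root sheath genes kept its sign under the alternatives run on it, from -3.21 to -1.55. The trimmed mean of M values (TMM), centring on the median of all genes, a minimum of 10 UMIs and no cell filter moved none of the shares, list medians and counts they were run on beyond the counting interval, the spread of the list or 1.5 times. The values that moved or turned are the following, and where a library had no UMI 3 UMIs were taken. The alternatives on marker UMIs and on the leading keratin were chosen after the data were seen. With 2 or more markers, the share was 9.19% of FGF8 cells and 4.15% of BSA cells. With 4 or more markers, the share was 0.938% of FGF8 cells, 0.769% of BSA cells, 71.4% Krt25/Krt73-led in the FGF8 library and 96.0% Krt25/Krt73-led in the BSA library, with list medians of 5.89 for hard keratins, 2.04 for other matrix genes, 0.13 for FGF genes, 0.66 for G2/M genes and 4.36 for *Krtap* genes. *Krt31* 8.29 and *Krtap11-1* 5.29 had the other sign. Without the condition on *Pdgfra*, the share was 4.33% of FGF8 cells. Thinned to 2000 UMIs per cell, the share was 1.53% of FGF8 cells, 1.41% of BSA cells and 48.8% Krt25/Krt73-led in the FGF8 library, with list medians of 0.041 for Wnt, Bmp, Shh and Notch genes and 0.48 for G2/M genes. *Krt82* -1.88 had the other sign. Without cells that held 3 macrophage or fibroblast markers, the share was 0.268% of FGF8 cells and 0.615% of BSA cells, with list medians of -3.97 for hard keratins, -0.65 for transcription factors, -0.45 for adhesion genes and -0.75 for Wnt, Bmp, Shh and Notch genes. *2310046K23Rik* 1.87, *Col2a1* -0.72, *Fos* -0.91, *Krt17* 9.83, *Krt71* 0.071, *Krt82* -1.97 and *Sprr1a* 2.02 had the other sign. With 20 or more marker UMIs, the share was 1.47% of FGF8 cells, with 490 higher and 205 lower genes past the fold, with list medians of -0.34 for adhesion genes, 0.080 for Wnt, Bmp, Shh and Notch genes, 0.66 for S genes and 0.72 for G2/M genes. *Sox9* -2.33 had the other sign. With 10 or more, the share was 1.64% of FGF8 cells, with list medians of -0.33 for adhesion genes, 0.061 for Wnt, Bmp, Shh and Notch genes, 0.41 for FGF genes, 0.60 for S genes and 0.77 for G2/M genes. *Sox9* -1.59 had the other sign. With 50 or more, the share was 1.21% of FGF8 cells and 1.45% of BSA cells, with list medians of -0.45 for adhesion genes, 0.13 for Wnt, Bmp, Shh and Notch genes, 0.53 for S genes and 0.54 for G2/M genes. *Krt17* 2.59 had the other sign. Under the stricter cell filter, list medians were -1.66 for hard keratins and 0.74 for G2/M genes. Within female-called cells, list medians were -5.82 for hard keratins, -2.80 for other matrix genes, -1.14 for transcription factors, -2.21 for suprabasal genes, -1.97 for adhesion genes and 1.77 for S genes. *Fgfbp1* -0.24, *Krt10* -0.43 and *Krt82* -2.19 had the other sign. Within male-called cells, list medians were 4.11 for hard keratins, 1.67 for other matrix genes, -1.12 for adhesion genes, 0.027 for FGF genes, 0.55 for S genes, 0.22 for G2/M genes and 2.06 for *Krtap* genes. *Areg* 1.67, *Fos* -0.10, *Krt17* 3.13, *Krt31* 5.49, *Krtap11-1* 3.75 and *Mki67* -0.053 had the other sign. In the Krt35-led cells, list medians were 0.41 for other matrix genes, 0.43 for transcription factors, 0.16 for adhesion genes, 0.18 for Wnt, Bmp, Shh and Notch genes, 0.33 for S genes and 0.57 for G2/M genes. *Areg* 2.63, *Crym* 0.31, *Krt25* 4.37, *Krt27* 1.31, *Krt28* 4.02, *Krt71* 2.97, *Krt73* 4.64, *Prr9* 5.70, *Sox9* -0.86 and *Tchh* 4.37 had the other sign. In the Krt25/Krt73-led cells, list medians were -0.47 for adhesion genes. *Krt31* 0.10, *Krtap11-1* 0.25 and *Sox9* -2.58 had the other sign. With equal weight of cells, list medians were 0.52 for G2/M genes. *Krt82* -1.32 had the other sign. Over genes with at least 100 UMIs, 598 higher and 144 lower genes were past the fold. For single genes, 237 values stayed within their counting interval, 427 moved with the sign kept and 36 turned. The causes were not tested, and the groups are small. They were 18 FGF8 and 20 BSA cells with fewer than 3 macrophage and fewer than 3 fibroblast markers, and 6 male-called BSA cells. Leaving out a replicate was not run, since each condition had 1 library. No paired analysis was possible because each condition had 1 library.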
